A study of Mus musculus with 7 samples.

Results

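The 10 genes described here, Procr, Fgd5, Hlf, Mecom, Mllt3, Ctnnal1, Prdm16, Sult1a1, Neo1 and Tek, are in common use as genes that mark or sustain long-term haematopoietic stem cells (LT-HSCs). They were taken as a named list, not from measured values, and were chosen with earlier results of these data known. They are 10 of 34932 genes with transcripts in the deposited files, and all 10 were among the 14695 genes with enough reads to be tested. RNA was measured by bulk RNA sequencing in 7 mouse samples, 4 labelled B4galt1 KO and 3 labelled B4galt1 WT. The KO group carries the genotype B4-/-, a knockout in the whole animal, and both groups share a mixed 129S1/C57Bl/6 background. No treatment, age or sex is given. Values per library are listed in the order of the replicate numbers. Cells came from flushed tibia and femur marrow and were sorted as negative for lineage antigens and CD48 and positive for Sca-1, c-Kit and CD150. The B4galt1 product is a Golgi galactosyltransferase that extends glycan chains with galactose. The labels do not state whether a replicate is 1 animal or a pool, so the p-values reflect only variation among these samples, part of which may be technical.

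LT-HSCs sustain all blood lineages for the life of the animal, and most of them are quiescent at any time. Their identity is held by a network of transcription factors and by surface receptors that read signals from the marrow niche. Hlf, Mecom and Prdm16 are DNA-binding proteins of that network, and Mllt3 (also called AF9) reads acylated histone H3 and links it to transcription elongation. Procr (the endothelial protein C receptor), Tek (the angiopoietin receptor TIE2) and Neo1 (neogenin, a receptor for netrins and repulsive guidance molecules) lie at the cell surface. Fgd5 is an exchange factor for the GTPase Cdc42, Ctnnal1 (alpha-catulin) is a relative of the alpha-catenins, and Sult1a1 is a phenol sulfotransferase.

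The genes that passed the test were Sult1a1 and Mllt3, and the windows before their annotated starts are shown to give the sequence context of these genes. The sequences are the 250 bases before each RefSeq start in GRCm38.p6, read 5′ to 3′ on the gene's strand, in lower case with every CG dinucleotide in capitals. Mllt3 has a distal and an internal annotated start, and both are shown because the reads of their transcripts are described further on.
Sult1a1, chr7:126676419-126676668, minus strand: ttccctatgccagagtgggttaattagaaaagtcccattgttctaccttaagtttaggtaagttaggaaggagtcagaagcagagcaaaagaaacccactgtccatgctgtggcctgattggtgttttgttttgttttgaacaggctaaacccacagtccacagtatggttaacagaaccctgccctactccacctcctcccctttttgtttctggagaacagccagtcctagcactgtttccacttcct
Mllt3 distal start, chr4:88033408-88033657, minus strand: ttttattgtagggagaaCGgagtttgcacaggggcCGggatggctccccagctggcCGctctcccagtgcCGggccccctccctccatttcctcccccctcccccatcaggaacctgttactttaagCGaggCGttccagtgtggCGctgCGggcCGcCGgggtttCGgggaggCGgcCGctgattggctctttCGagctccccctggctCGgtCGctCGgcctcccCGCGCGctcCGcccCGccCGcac
Mllt3 internal start, chr4:87806324-87806573, minus strand: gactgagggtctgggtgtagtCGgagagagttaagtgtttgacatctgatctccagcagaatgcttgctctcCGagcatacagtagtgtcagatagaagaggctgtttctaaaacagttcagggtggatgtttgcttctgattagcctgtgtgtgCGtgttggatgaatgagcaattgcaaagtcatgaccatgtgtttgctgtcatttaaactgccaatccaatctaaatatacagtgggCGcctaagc

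CG was counted as the letters C then G, which read the same on both strands. The Sult1a1 window held 0 CG, and 7.87% of 32851 RefSeq promoters of the same length held none. The distal Mllt3 window held 23 and the internal one 4, where the median promoter held 6. All 10 genes had an entry, with 12 windows in all because Mecom also has more than 1 start. In the other genes the count was 2 for Tek, 13 for Procr, 18 for Ctnnal1, 22 for Prdm16, 26 for Hlf, 31 for Fgd5 and 45 for Neo1. Mecom held 14 and 8. Some of these windows are partly transcribed in the GENCODE M21 annotation, with exon overlaps of 100 bases for Procr, 87 for Fgd5, and 63 and 250 for Mecom. The last 14 bases of the Sult1a1 window lie inside the first exon of Sult1a1-202 in the same annotation, and neither Mllt3 window overlaps an annotated Mllt3 exon. The windows describe sequence only, since binding and methylation were not measured here.

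Libraries held 23508985 to 34941390 estimated reads. B4galt1 RNA did not separate the groups, at 14.6 to 19.3 CPM (counts scaled to library size) in KO against 11.3 to 24.4 in WT (log2 fold change -0.20, edgeR adjusted p = 0.758), so every direction below rests on the labels. Whole-gene counts leave unseen whether a deleted stretch is missing from its RNA. KO replicate 4 and WT replicate 2 had the lowest limma voom quality weight in their group, 0.286 and 0.41. The summed level of 4 Y-linked genes was 11.6 CPM in KO replicate 4 and 5.92 CPM in WT replicate 3, and 232 to 382 CPM in the other libraries. Of the sorted antigens, Ly6a (Sca-1), Kit and Slamf1 (CD150) were present in every library and did not pass the test, with log2 fold changes of 0.11, -0.29 and -0.18. Cd48 RNA was at 105, 126, 142 and 129.7 CPM in the KO libraries and at 25.2, 14.01 and 32.3 CPM in the WT libraries, although the sort took CD48-negative cells (log2 fold change 2.40, edgeR adjusted p = 0.000804).

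Across the 10 genes, 9 had a log2 fold change (KO minus WT) below 0, as did 47.3% of all tested genes. Sult1a1 and Mllt3 fell, 0 rose and 8 did not pass edgeR's quasi-likelihood test at an adjusted p of 0.05. Among all tested genes 1.66% were called lower and 0.599% higher. In 6 of the 10 (Sult1a1, Mllt3, Neo1, Procr, Fgd5 and Mecom) every KO library lay below every WT library in CPM, which 7.47% of all tested genes showed. The median log2 fold change of the 10 was -0.79, beside 0.03 over all tested genes. The unadjusted p was under 0.05 for the same 6, as it was for 7.21% of all tested genes in this direction. DESeq2 called 5 of them lower, where it called 3.50% of all genes lower, and limma voom called 4, where it called 2.99%. Without KO replicate 4 and WT replicate 2, edgeR called 3 lower, where it called 2.07% of all genes lower. In bulk RNA, fewer cells of a type and less RNA per cell cannot be told apart.

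**Figure D1:**
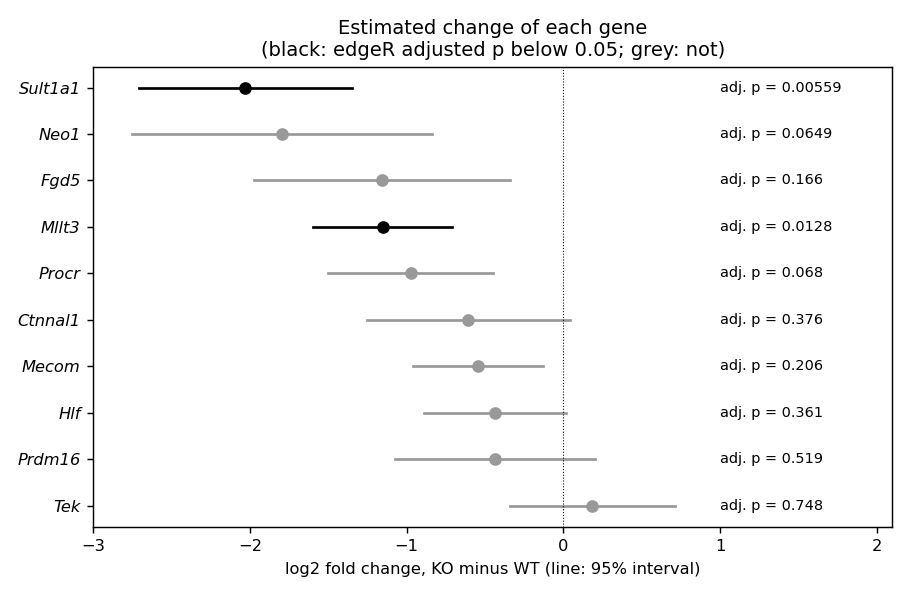
Log2 fold change (KO minus WT, horizontal axis) of each of the 10 genes, with points for the edgeR estimate and bars for its 95% interval. Sult1a1 (-2.03) and Mllt3 (-1.15) passed the test at an adjusted p of 0.05, and Tek (0.18) is the gene above 0.

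Among the surface receptors, Procr was at 21.2, 23.2, 33.7 and 16.7 CPM in the KO libraries and at 47.1, 51.9 and 40.6 CPM in the WT libraries. The groups did not overlap, and KO replicate 3 was the KO library nearest to WT. The means were 23.7 ± 7.22 CPM (SD, n = 4) and 46.5 ± 5.69 CPM (SD, n = 3). The log2 fold change of -0.97 (SE 0.237, 95% interval -1.50 to -0.45) did not pass (edgeR adjusted p = 0.068). It passed in 6 of 19 alternatives, among them DESeq2 (adjusted p = 0.00417), limma voom (adjusted p = 0.0481), the Y-linked pattern as a covariate (adjusted p = 0.0182) and the fit without KO replicate 3 (adjusted p = 0.0269). Procr binds activated protein C, and cells sorted for high levels of it are enriched in LT-HSCs.

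Neo1 had the lowest reads of the 10, with estimated counts of 23, 30, 57 and 81 for KO and 119, 112 and 166 for WT. Scaled to library size this was 0.898, 1.11, 2.08 and 2.19 CPM in KO and 4.04, 5.25 and 7.16 CPM in WT. All KO libraries were lower than all WT libraries, with KO replicates 1 and 2 lowest. The log2 fold change of -1.80 (SE 0.432, 95% interval -2.75 to -0.84) did not pass (edgeR adjusted p = 0.0649). It passed in 5 of 19 alternatives, including DESeq2 (adjusted p = 0.0026) and the fit without KO replicate 4 (adjusted p = 0.0466).

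Tek, whose ligand angiopoietin-1 is linked to stem cell quiescence in the niche, was at 28.3, 27.4, 37.1 and 38.1 CPM in the KO libraries and at 28.3, 20.3 and 37.7 CPM in the WT libraries. The groups overlapped, and WT replicate 2 lay below every KO library. Its estimate of 0.18 on the log2 scale (SE 0.238, 95% interval -0.34 to 0.71, edgeR adjusted p = 0.748) turned to -0.04 without WT replicate 2.

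**Figure D2:**
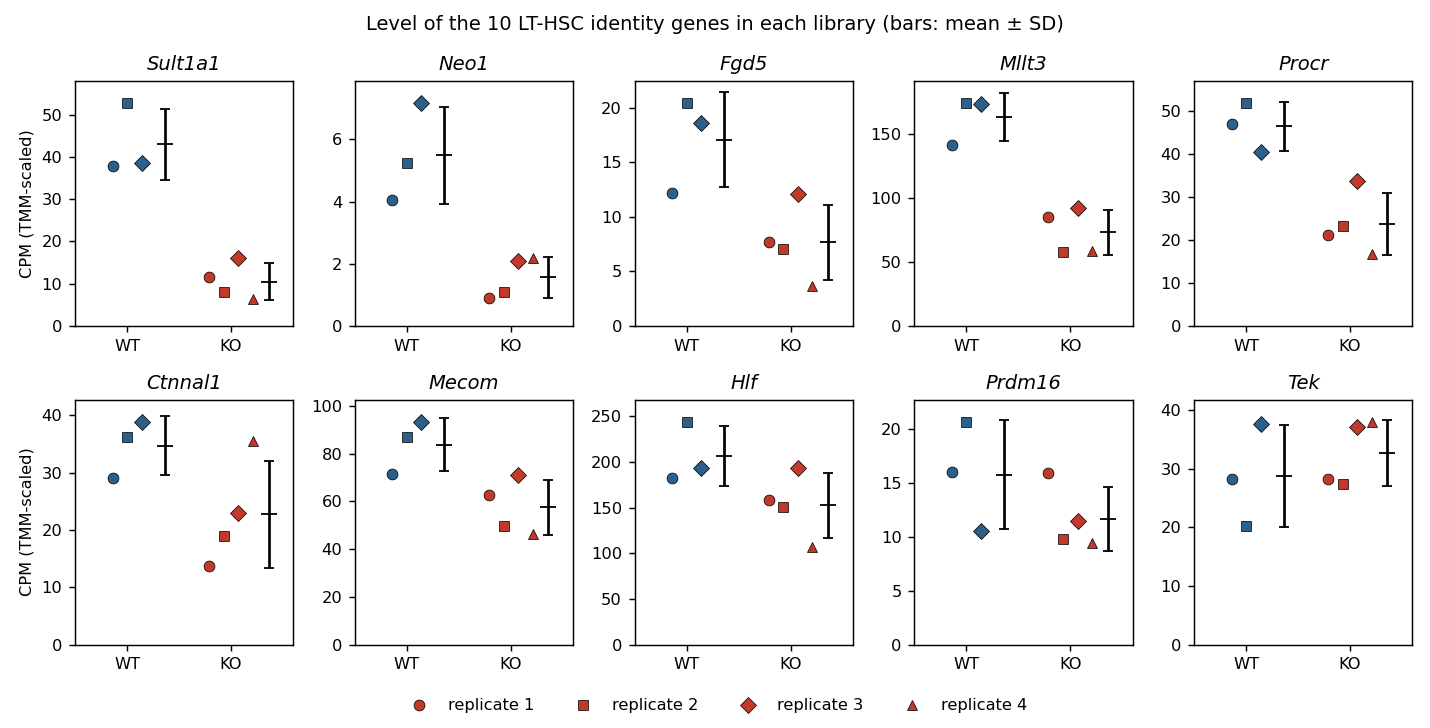
CPM (vertical axes, each with its own scale) of the 10 genes in every library, with 1 symbol per replicate for the 3 WT (blue) and 4 KO (red) libraries and bars at each group mean ± SD. Sult1a1 (KO 6.32 to 16.2, WT 37.8 to 52.7) and Mllt3 (KO 58.0 to 91.7, WT 141 to 174) show separate groups, while Tek, Prdm16, Hlf and Ctnnal1 overlap.

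Among the transcription and chromatin genes, Mllt3 was at 84.7, 58.0, 91.7 and 58.2 CPM in the KO libraries and at 141, 174 and 173 CPM in the WT libraries. Every WT library exceeded every KO library, and KO replicates 2 and 4 were lowest. Means were 73.2 ± 17.6 CPM (SD, n = 4) and 163 ± 18.6 CPM (SD, n = 3), a level 2.23-fold lower in KO. Mllt3 fell by 1.15 on the log2 scale (SE 0.2, 95% interval -1.60 to -0.71, edgeR adjusted p = 0.0128). It passed in 16 of 19 alternatives. The call was lost without KO replicate 2 (adjusted p = 0.0516), without WT replicate 3 (adjusted p = 0.0534), and without KO replicate 4 and WT replicate 3 together (adjusted p = 0.0525).

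Hlf, a PAR bZIP transcription factor known for keeping stem cells quiescent, had 158, 150.4, 193 and 107 CPM in the KO libraries and 182, 244 and 193 CPM in the WT libraries. The groups overlapped, because KO replicate 3 reached the level of WT replicates 1 and 3. Its log2 fold change of -0.44 (SE 0.205, edgeR adjusted p = 0.361) had an interval of -0.89 to 0.02. Mecom, the zinc-finger gene of the Mds1 and Evi1 complex locus, had 62.6, 49.9, 71.1 and 46.4 CPM in KO and 71.4, 86.8 and 93.4 CPM in WT. Its groups did not overlap but nearly met, at KO replicate 3 and WT replicate 1. For Mecom the log2 fold change of -0.54 (SE 0.188, interval -0.96 to -0.13, edgeR adjusted p = 0.206) passed in 0 of 19 alternatives. Prdm16, a relative of Mecom with a PR domain, had 15.9, 9.80, 11.5 and 9.37 CPM in KO and 16.0, 20.7 and 10.6 CPM in WT. The Prdm16 groups overlapped, with KO replicate 1 level with WT replicate 1. Its log2 fold change of -0.44 (SE 0.289, edgeR adjusted p = 0.519) had an interval of -1.07 to 0.20.

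The mean effective length of the transcripts to which Salmon assigned reads differed between the groups for several of the 10 genes. It was shorter in KO for Prdm16 (log2 difference -0.62), Neo1 (-0.44), Ctnnal1 (-0.39), Mecom (-0.31) and Hlf (-0.21), where the median over all tested genes was -0.001. It was longer in KO for Mllt3 (0.17) and Fgd5 (0.16), and smaller shifts were seen for Tek (-0.12), Sult1a1 (-0.03) and Procr (0.02). With a length offset the log2 fold change was -1.35 for Mllt3 and -1.30 for Fgd5. Per length, in TPM (the deposited length-scaled unit), Mecom was at 22.9 ± 1.82 TPM (SD, n = 4) in KO and 23.4 ± 3.09 TPM (SD, n = 3) in WT. Hlf was at 33.2 TPM in KO and 33.7 TPM in WT. Prdm16 was at 4.97 ± 1.32 TPM (SD, n = 4) and 3.61 ± 0.229 TPM (SD, n = 3), and with the length offset its log2 fold change turned to 0.21 (edgeR adjusted p = 0.752). Ctnnal1 was at 9.13 ± 4.70 TPM (SD, n = 4) in KO and 8.95 ± 1.47 TPM (SD, n = 3) in WT, the opposite order to its CPM, with a log2 fold change of -0.25 under the length offset (edgeR adjusted p = 0.675). Neo1 was at 0.420 ± 0.267 TPM (SD, n = 4) and 0.835 ± 0.310 TPM (SD, n = 3), with -1.26 under the offset (edgeR adjusted p = 0.259). The nearly identical full-length Prdm16 transcripts took the reads in turn, Prdm16-204 in KO replicates 1 and 2 and WT replicate 3, Prdm16-202 in KO replicates 3 and 4 and WT replicate 1, and a further full-length form in WT replicate 2. In TPM the groups did not overlap for 3 of the 10 (Procr, Mllt3 and Sult1a1), all with KO below WT, against 20.2% of all tested genes in either direction.

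Among the remaining genes, Sult1a1 (GRCm38 chromosome 7, 126672865 to 126676432, minus strand) was at 11.6, 8.06, 16.2 and 6.32 CPM in the KO libraries and at 37.8, 52.7 and 38.5 CPM in the WT libraries. The groups were far apart, and the highest KO library, replicate 3, stayed below the lowest WT library. Means were 10.5 ± 4.34 CPM (SD, n = 4) and 43.0 ± 8.39 CPM (SD, n = 3), a level 4.09-fold lower in KO. Sult1a1 fell by 2.03 on the log2 scale (SE 0.307, 95% interval -2.71 to -1.35, edgeR adjusted p = 0.00559). It passed in 19 of 19 alternatives, with log2 fold changes of -2.32 to -1.70. Sult1a1 overlaps Sgf29 on the opposite strand, which was at 93.9 to 124 CPM, and the library kit does not mark strand.

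Fgd5, whose reporter allele is used to label stem cells, had 7.73, 7.10, 12.1 and 3.67 CPM in KO and 12.2, 20.4 and 18.6 CPM in WT. KO replicate 3 and WT replicate 1 were nearly level at the border between the groups. For Fgd5 the log2 fold change was -1.16 (SE 0.368, interval -1.97 to -0.34, edgeR adjusted p = 0.166), and it passed in 1 of 19 alternatives, DESeq2 (adjusted p = 0.0418). Ctnnal1, which also has a reporter allele used for this purpose, had 13.7, 18.9, 22.9 and 35.6 CPM in KO and 29.0, 36.3 and 38.9 CPM in WT. The groups overlapped through KO replicate 4 alone. Its log2 fold change was -0.61 (SE 0.293, interval -1.26 to 0.04, edgeR adjusted p = 0.376), and without KO replicate 4 and WT replicate 2 it was -0.90 (adjusted p = 0.089).

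KO replicate 4, which had the lowest limma voom quality weight, was the lowest KO library in 6 of 10 and the highest in 3 of 10. KO replicate 3 was the highest KO library in 6 of 10. In WT, replicate 1 was lowest in 7 of 10 and replicate 2 highest in 6 of 10. How often these libraries were lowest or highest over all tested genes is not given here, so the order is not read as a trait of the 10 genes. The summed level of the 10 genes was 405, 354, 492 and 324 CPM in the KO libraries and 569, 712 and 652 CPM in the WT libraries, so the sums did not overlap. Hlf and Mllt3 make up most of these sums.

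Compared per length, the order of the genes by median TPM over the 7 libraries was Mllt3 (40.9), Hlf (33.4), Procr (25.6), Mecom (23.1), Sult1a1 (14.95), Tek (7.99), Ctnnal1 (7.96), Fgd5 (5.22), Prdm16 (3.86) and Neo1 (0.640). The ranges over libraries overlapped between each neighbouring pair except Prdm16 and Neo1. Prdm16 ran from 3.43 to 6.52 TPM and Neo1 from 0.148 to 1.19 TPM. The order differed by group. In WT the mean of Sult1a1 (33.7 TPM) was level with Hlf (33.7 TPM) and above Procr (31.5 TPM) and Mecom (23.4 TPM), while in KO Sult1a1 was at 9.86 TPM and Mecom (22.9 TPM) was above Procr (18.4 TPM). On CPM per kilobase of mean effective length, Tek and Ctnnal1 changed places and the rest of the order was the same.

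The shares of reads per transcript are given as a description: the groupings below were made after the shares had been seen, and 0 of the 10 genes passed a test of transcript use within a gene over all transcripts (diffSpliceDGE), which 4.44% of 8914 genes passed. At Mllt3, transcripts of the internal start (Mllt3-202 and Mllt3-208, with Mllt3-207 at 0) held 36.4%, 20.7%, 22.6% and 40.4% of the gene's estimated reads in the KO libraries and 49.5%, 43.0% and 52.5% in the WT libraries. All WT shares exceeded all KO shares, with means of 48.3% ± 4.85 (SD, n = 3) and 30.0% ± 9.82 (SD, n = 4). The exact two-sided permutation p was 0.0571, the smallest that 4 against 3 libraries can give. Because the grouping was made after the shares had been seen, no conclusion is drawn from that p-value. In CPM the internal-start transcripts were at 21.8 ± 7.77 in KO and 78.6 ± 11.1 in WT, a ratio of 3.61. The other Mllt3 transcripts were at 51.4 and 84.2 CPM, a ratio of 1.64. Tested as transcripts, Mllt3-208 fell by 1.93 on the log2 scale (SE 0.276, edgeR adjusted p = 0.0442), where 0.276% of 40219 tested transcripts were called lower. The full-length Mllt3-201 did not pass (-0.93, adjusted p = 0.286), nor did Mllt3-202 (-1.96, adjusted p = 0.0835).

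At Mecom, transcripts that begin at the distal Mds1 start held 38.5%, 42.7%, 52.3% and 31.1% of reads in the KO libraries and 24.1%, 18.9% and 23.7% in WT. Here the KO shares were all higher. Transcripts of internal starts, which include the Evi1 forms, were at 33.2 ± 4.16 CPM (SD, n = 4) in KO and 65.3 ± 9.61 CPM (SD, n = 3) in WT. Mds1-start transcripts were at 24.2 ± 9.53 CPM (SD, n = 4) and 18.6 ± 3.08 CPM (SD, n = 3). At Fgd5, most reads were assigned to Fgd5-204, a retained-intron transcript of the 3′ part of the gene. Transcripts of the full span held 28.5%, 22.6%, 18.4% and 44.1% of Fgd5 reads in KO and 6.71%, 10.8% and 4.44% in WT. In CPM the full-span transcripts were at 1.92 ± 0.352 (SD, n = 4) in KO and 1.28 ± 0.799 (SD, n = 3) in WT, with overlapping groups. Transcripts of the 3′ part only were at 5.74 ± 3.22 CPM (SD, n = 4) and 15.8 ± 3.85 CPM (SD, n = 3). The lower Fgd5 level in KO thus lay in reads assigned to the 3′ part. The exact two-sided permutation p was again 0.0571 for Mecom and Fgd5. These groupings were likewise made after the shares had been seen, so no conclusion is drawn from it.

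**Figure D3:**
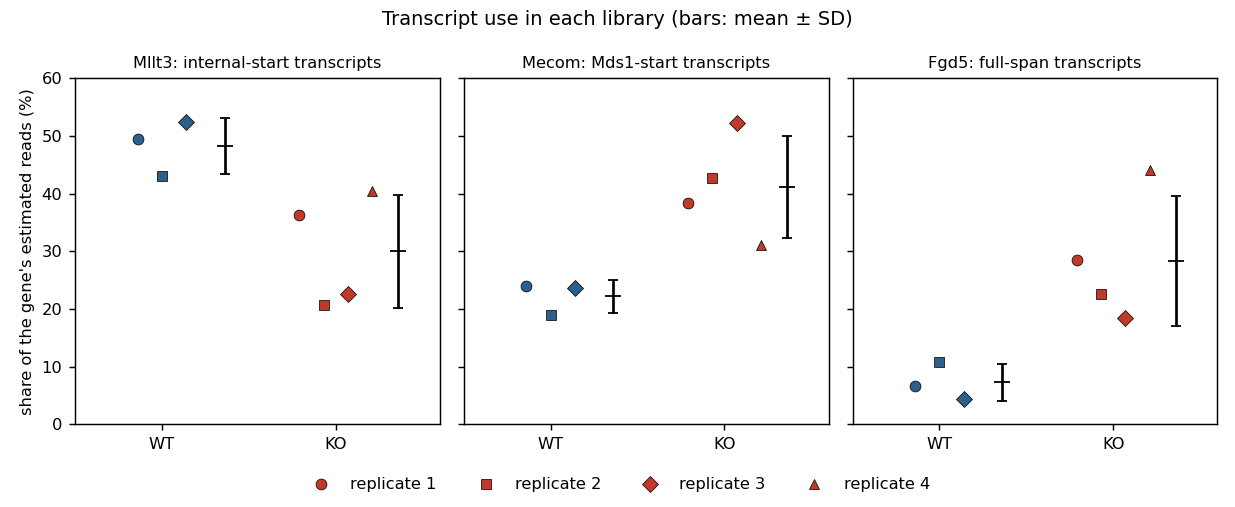
Share of estimated reads (percent, vertical axis) held by internal-start transcripts of Mllt3, by Mds1-start transcripts of Mecom and by full-span transcripts of Fgd5, with 1 symbol per replicate for WT (blue) and KO (red) and bars at each group mean ± SD. Shares of KO libraries lie below WT for Mllt3 (20.7 to 40.4 against 43.0 to 52.5) and above WT for Mecom and Fgd5.

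As a share of TPM in place of reads, the difference in the Fgd5 full-span share (KO minus WT) was 10.3 percentage points in place of 21.1, and that in the Mecom internal-start share -11.8 in place of -18.9. The diffSpliceDGE adjusted p was 0.195 for Mllt3, 0.466 for Mecom and 0.175 for Fgd5, and the lowest was 0.0538 for Ctnnal1, with Hlf at 0.0988. The main Ctnnal1 transcript, Ctnnal1-201, held 75.0% to 94.9% of reads in KO and 96.2% to 98.7% in WT. Salmon's own uncertainty in dividing reads among transcripts is not part of these tests. At Hlf, the shorter Hlf-203 held 20.7% of reads in KO replicate 4 and 3.38% or less in each of the others.

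The receptor list held ligands, co-receptors and partners of Procr, Tek and Neo1, and 17 of its 27 genes were tested. In it 3 fell and 0 rose, beside 1.66% and 0.599% of all tested genes. The median log2 fold change of the list was -0.30. F5 (coagulation factor V) was at 8.63, 7.39, 5.27 and 4.70 CPM in KO and 82.2, 91.1 and 37.0 CPM in WT (log2 fold change -3.43, edgeR adjusted p = 0.000308). Pros1 (protein S) was at 6.91 to 20.2 against 34.0 to 44.5 CPM (-1.51, adjusted p = 0.033), a call lost in 5 of 19 alternatives, each a fit without 1 of KO replicates 2 and 3 and WT replicates 1 to 3. The thrombin receptor gene F2rl2, which is also in the platelet list, was at 46.2 to 55.0 against 119 to 136.7 CPM (-1.31, adjusted p = 0.000632). F5 and Pros1 encode cofactors of the protein C pathway that acts through Procr, but a link between their levels and that of Procr was not tested. Proc, the gene of protein C itself, was at 0 in all libraries. Angpt1, the ligand of Tek, was at 695 to 798 CPM in KO and 632 to 722 CPM in WT (0.17, adjusted p = 0.606).

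The chromatin and transcription list held elongation partners of Mllt3 and cofactors or relatives of Hlf, Mecom and Prdm16. Of its 37 tested genes, 0 passed by edgeR, DESeq2 or limma voom. An unadjusted edgeR p under 0.05 was seen for 2, both lower, where 7.21% of all tested genes had one in this direction. Its median log2 fold change was 0.00. The smallest p-values were those of Hexim1 (-0.73, adjusted p = 0.226), an inhibitor of P-TEFb, Ski (-0.77, adjusted p = 0.309) and Smad3 (-0.54, adjusted p = 0.395). The list of GTPase, catenin and sulfonation relatives had 15 tested genes and a median of -0.00. By edgeR 1 was lower and 0 higher (1.66% and 0.599% of all tested genes). DESeq2 called 2 lower and 1 higher (3.50% and 2.40%), and limma voom 1 and 1 (2.99% and 1.83%). In 2 all KO libraries lay below all WT libraries (7.47%), and in 2 above (8.23%). The gene called lower by edgeR was the sulfotransferase gene Sult4a1, at 6.39, 7.87 and 4.27 CPM in WT, with 1 read in KO replicate 3 and 0 in the other KO libraries (edgeR adjusted p = 0.000114).

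The list of other stem cell genes had 64 tested genes, of which 7 fell and 2 rose, with a median log2 fold change of -0.31 and 49 below 0. Over all tested genes 1.66% fell, 0.599% rose and 47.3% were below 0. In 22 of the 64 all KO libraries lay below all WT libraries (7.47% of all tested genes), and in 4 all lay above (8.23%). Fhl1 was at 18.7 to 27.1 CPM in KO and 128 to 185 CPM in WT (-2.92, edgeR adjusted p = 2.3e-05). The cell cycle inhibitor gene Cdkn1c (p57), linked to stem cell quiescence, was at 4.16 to 11.1 against 27.4 to 37.3 CPM (-1.998, adjusted p = 0.00622). Cd9 (-1.44, adjusted p = 0.00229) and Vwf (-1.76, adjusted p = 0.0036) also fell and are among 4 genes shared with the platelet list. Vldlr rose (2.02, adjusted p = 0.0165), as did Satb1 (1.65, adjusted p = 0.0173), a chromatin organiser of lymphoid priming. Vldlr did not pass without WT replicate 1 or 2, and Satb1 did not pass without KO replicate 1 or 3 or WT replicate 2 or 3. DESeq2 called 14 lower and 3 higher in this list (3.50% and 2.40% of all genes), and limma voom 12 and 3 (2.99% and 1.83%).

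**Figure D4:**
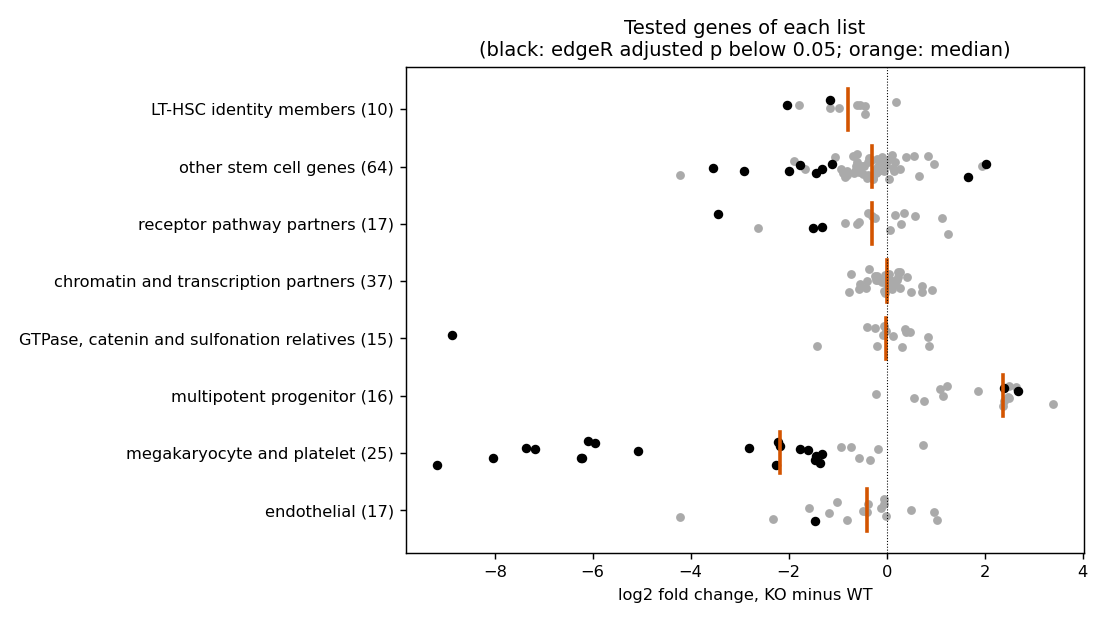
Log2 fold change (KO minus WT, horizontal axis) of every tested gene in the 10 LT-HSC identity genes, the other stem cell genes, the partner lists and 3 lists of cell type markers, black where the gene passed the edgeR test, with an orange bar at each list's median. Medians are -0.79 for the 10 genes, -0.31 for the other stem cell genes, -0.30 for the receptor list, 0.00 for the chromatin list and -0.00 for the GTPase list. They are -2.18 for the megakaryocyte and platelet list, -0.40 for the endothelial list and 2.38 for the multipotent progenitor list. The far-left point of the GTPase list is Sult4a1, whose fitted value is no bound because the KO libraries held 1 read.

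The 25 megakaryocyte and platelet markers summed to 2164 to 2993 CPM in KO and 8060 to 15341 CPM in WT. Of these markers 19 fell, beside 1.66% of all tested genes, and their median log2 fold change was -2.18. The 16 multipotent progenitor markers summed to 1838 to 2190 CPM in KO and 1202 to 1347 CPM in WT. Of these 16, Plac8 (2.68, edgeR adjusted p = 4.31e-05) and Cd48 rose, 14 did not pass, the median log2 fold change was 2.38 and in 10 all KO libraries lay above all WT libraries (8.23% of all tested genes). Endothelial cells also express Procr and Tek. The endothelial list summed to 308 to 420 CPM in KO and 419 to 451 CPM in WT. Its median log2 fold change was -0.40, with 14 of 17 tested genes below 0 (47.3% of all tested genes). In 6 of the 17 all KO libraries lay below all WT libraries (7.47% of all tested genes), and in 1 all lay above (8.23%). Cdh5 and Sox17 were at 0 in all 7 libraries, and of 17 tested genes 1 fell, Sox18 (-1.47, adjusted p = 0.0283), a call lost in 9 of 19 alternatives, including each fit without 1 library other than KO replicate 4. Of the stromal markers 3 of 14 were tested and 0 passed, with Col3a1 and Adipoq at 0. Of 18 erythroid markers 1 fell, of 19 granulocyte and monocyte markers 2 fell and 1 rose, and of 15 lymphoid markers 1 rose (1.66% of all tested genes fell and 0.599% rose). The lymphoid list summed to 329 to 483 CPM in KO and 226 to 304 CPM in WT, with a median log2 fold change of 0.84. All KO libraries lay above all WT libraries in 4 lymphoid markers (8.23% of all tested genes). Of the granulocyte and monocyte markers 6 lay fully below (7.47%) and 4 fully above. The part of the progenitor and platelet markers in the levels of the 10 genes, or of the genes called in the receptor list, was not tested.

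Genes whose pattern over the 7 libraries was most like that of Mllt3 or Sult1a1 were found among 13747 protein-coding genes, by the mean absolute difference in log2 CPM after centring each gene. For Mllt3 they were Tox (0.0587), Mmrn1 (0.1) and Itsn1 (0.143). Tox was at 18.1, 14.2, 20.1 and 13.9 CPM in KO and 31.4, 39.3 and 40.7 CPM in WT. For Sult1a1 they were Me1 (0.166), Nrk (0.172) and Rgs10 (0.209). Rgs10 was at 28.5 to 55.7 CPM in KO and 152 to 235 CPM in WT.

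In GRCm38, Procr lies on chromosome 2 from 155751117 to 155755471 (plus strand), Mecom on chromosome 3 from 29951296 to 30548008 (minus) and Fgd5 on chromosome 6 from 91978878 to 92076004 (plus). Neo1 lies on chromosome 9 from 58874687 to 59036441 (minus) and Hlf on chromosome 11 from 90336536 to 90390895 (minus). Mllt3, Ctnnal1 (56810935 to 56865188, minus), Prdm16 (154316125 to 154636873, minus) and Tek (94739289 to 94874976, plus) lie on chromosome 4, as does B4galt1 (40804602 to 40854005, minus). Mllt3 (chromosome 4, 87769925 to 88033364, minus strand) starts 47.0 Mb from B4galt1 and Ctnnal1 16.0 Mb from it. Of 898 tested genes on chromosome 4, 18 were called in either direction (2.0%), beside 2.28% of the 13797 tested elsewhere and 2.26% of all. Of the 18, 16 were lower and 2 higher. Within 10 Mb of B4galt1 the share was 3.57% of 140 genes (5 lower, 0 higher). Within 20 Mb it was 3.12% of 192 (6 lower, 0 higher), and within 50 Mb 3.58% of 307 (10 lower, 1 higher). Over all tested genes 1.66% were lower and 0.599% higher. Of the 4 genes on chromosome 4, Mllt3 was the 1 called. Since the background is mixed, alleles carried along with the B4galt1 locus and the loss of B4galt1 cannot be told apart for genes near it.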

How the data were processed

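Reads were trimmed with cutadapt and quantified with Salmon 0.11.2 against mm10, per the submitters' processing notes. Which transcripts Salmon was given is not stated in the sources used here. The deposited files give, per transcript, estimated counts and TPM. Both were joined to GENCODE M21 (GRCm38), where 111787 of 112092 transcripts matched, and summed to 34932 genes. Rows that did not match held 0.0836% to 0.123% of estimated reads. Estimated counts were rounded and tested with edgeR 4.0.16 (R 4.3.3), with TMM scaling, filterByExpr and Benjamini-Hochberg adjustment over 14695 genes. All adjusted p-values are from this fit unless another tool is named. SE is the log2 fold change over the square root of F. CPM are TMM-scaled. Alternatives were DESeq2 1.42.0, limma 3.58.1 voom with quality weights, other scalings and filters, a transcript length offset, protein-coding genes only, the Y-linked pattern as a covariate, a replicate block and left-out libraries. The fit without KO replicate 4 and WT replicate 2, the transcript tests and the transcript groupings were added after seeing the data.

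On counts simulated for this comparison, with 14537 genes, the test recovered 34% of genes changed 2-fold and 83% of those changed 4-fold, and called 6 of 14337 unchanged genes. Changes were placed only in genes above a minimum mean level, and counts were drawn independently from the fitted dispersions. Libraries that deviate as a whole and Salmon's uncertainty in dividing reads were not simulated, so these rates may not hold for the measured data. Totals of 23508985 to 34941390 estimated reads per library set the precision. The members and gene lists were chosen with earlier results of these data known. All 10 members are named; from each other list, passing genes (at most 4, smallest p first) or otherwise up to 3 of smallest p, and for each passing member the 3 genes of most similar pattern. Angpt1, Vldlr, Ly6a, Kit, Slamf1 and Sgf29 are named outside this rule, chosen after their values were seen. So are the genes named as at 0, which are Proc, Cdh5, Sox17, Col3a1 and Adipoq. Promoter sequences are from RefSeq (GRCm38.p6). Hjv and Ly76 matched no gene symbol.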

Additional observations from a re-analysis of the deposited data

Results flagged for a closer look

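In 3 of 23 quantities examined for the 10 genes, 1 KO library stood far from the other 3, by Dixon's criterion, under which chance flags about 1 in 20 groups. Procr was at 25.6 TPM in KO replicate 3 and at 15.3 to 16.4 TPM in the other KO libraries. Mllt3 was at 25.2 TPM in KO replicate 2 and at 39.3 to 40.9 TPM in the others. Ctnnal1 was at 16.2 TPM in KO replicate 4 and at 6.54 to 6.93 TPM in the others.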

How the results depend on the processing

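Of the 10 genes, 2 were lower by edgeR, 5 by DESeq2, 4 by limma voom, 4 with the Y-linked pattern as a covariate, 1 without KO replicate 4 and WT replicate 3, and 1 to 3 with 1 library left out. Over all genes the main count was 244 lower and 88 higher. It was 514 lower and 352 higher by DESeq2, 439 and 269 by limma voom, 396 and 218 with the covariate, 251 and 215 with the length offset, and 310 and 137 without KO replicate 4 and WT replicate 2. Leaving out 1 library gave 157 to 279 lower and 30 to 130 higher. The share of calls that were higher was 26.5% and became 46.1% with the length offset. Of the other stem cell genes, 7 were lower by edgeR, 14 by DESeq2, 12 by limma voom and 12 with the covariate, and 5 to 10 with 1 library left out. Of these genes 2 were higher, 1 without KO replicate 4 and WT replicate 3, and 0 to 2 with 1 library left out. Of the 10 genes, 2 changed sign, Prdm16 to 0.21 with the length offset, and Tek (-0.04 to 0.41 with 1 library left out) to -0.04 without WT replicate 2 and to -0.11 without KO replicate 4 and WT replicate 2. With the replicate block, 58 genes were higher and 182 lower; Mllt3 was at -1.08 (adjusted p = 0.0495) and Sult1a1 at -1.88 (adjusted p = 0.0207). KO replicate 4 has no WT partner and adds nothing to that fit. Same-numbered libraries deviated from their group means with correlations of -0.05, -0.12 and -0.04, so the numbers were not taken as pairs.

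Limits are few libraries, the low reads of Neo1, the unknown uncertainty of the division of reads among transcripts, and the absence of a B4galt1 RNA difference to check the labels. Directions kept their sign in 19 of 19 alternatives for Procr, Fgd5, Hlf, Mecom, Mllt3, Ctnnal1, Sult1a1 and Neo1. These alternatives are refits of the same deposited counts. In TPM the mean of Ctnnal1 was in the opposite order (9.13 in KO, 8.95 in WT). Hlf (33.2 and 33.7) and Mecom (22.9 and 23.4) were nearly level, and the means of Procr, Fgd5, Mllt3, Sult1a1 and Neo1 were lower in KO.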
